A study of Drosophila melanogaster with 3 samples.

Results

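The wing and leg selector genes examined here are 10 regulators chosen by function: vestigial (vg), scalloped (sd), Distal-less (Dll), apterous (ap), spalt major (salm), spalt-related (salr), araucan (ara), caupolican (caup), dachshund (dac) and homothorax (hth). They are 10 of the 13945 protein-coding genes of the annotation, and 19 of the 9095 peak summits in the optimal list for the ecdysone receptor EcR lay in their regions. A gene's region was its annotated body plus 2 kb upstream of its outermost start, and each peak was placed by its summit. Binding was mapped by chromatin immunoprecipitation and sequencing (ChIP-seq) in Drosophila melanogaster pupae 24 hours old, labelled as whole organisms with the sexes pooled. The animals were of the EcR-GFP line, in which EcR carries enhanced GFP at its C-terminus, and sonicated chromatin was precipitated with an antibody to GFP. The only group consisted of 3 biological replicates, from separate biosamples of this line, so every sample carried the tagged receptor. No animal without the tag, no other stage and no dissected tissue was analysed here. Binding in wing, leg and all other tissues therefore cannot be told apart, and no site can be called gained or lost.

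Ecdysone is the steroid hormone that drives moulting and metamorphosis in insects. Its receptor EcR binds DNA together with ultraspiracle (usp), a second nuclear receptor. Selector genes encode transcription factors and cofactors that give a field of cells its identity, here the parts of the wing and leg that grow from the imaginal discs. Hth, a homeodomain protein that brings its partner Extradenticle into the nucleus, marks proximal limb and wing hinge, while Dac and Dll act in intermediate and distal leg. Vg and its DNA-binding partner Sd specify the wing, Ap specifies its dorsal compartment, and the spalt and Iroquois genes pattern its central region, veins and the notum.

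Peak lists in the dm6 assembly were the starting point. The pooled list and the list of each replicate held exactly 30000 peaks, and the optimal list held 9095 peaks thresholded by the irreproducible discovery rate (IDR), which were the 9095 strongest of the pooled list. Peak strength is the signal value the authors deposited for each peak, from 358 to 20268 in the optimal list with a median of 627, and it served only to rank peaks within a list, 1 being the strongest. The number of reads is not known, so the depth behind a peak cannot be stated. Because the optimal list was derived from the replicates, a match between these lists is not independent of it.

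EcR summits were concentrated in 1 of the 10 genes. The hth region held 15 optimal summits, sd, Dll, ap and dac held 1 each, and vg, salm, salr, ara and caup held none. The optimal list draws on all 3 replicates, so a stricter filter was laid over it, which can only lower the counts. Leaving out 1 replicate at a time, only optimal summits matched among the strongest 9095 peaks of both remaining replicates were kept. So filtered, hth held 9 without replicate 1, 11 without replicate 2 and 9 without replicate 3. By that rule the genes with a summit fell from 5 to 2 (hth and sd) without replicate 1 or 3, and to 4 without replicate 2, which removed dac. The share of all protein-coding genes left by that rule was not counted, so whether other genes lose as much is not known. In the optimal list as deposited, 5 of the 10 genes had an optimal summit, beside 30.7% of all protein-coding genes. The regions of the 9 genes other than hth are 13304 to 25313 bp long, and 4 of these 9 had an optimal summit, beside 60.6% of the 883 protein-coding genes with regions in that range of length. Those 883 genes held 2.18 optimal summits each on average and the 9 selector genes 0.444, a difference that was not tested.

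**Figure D1:**
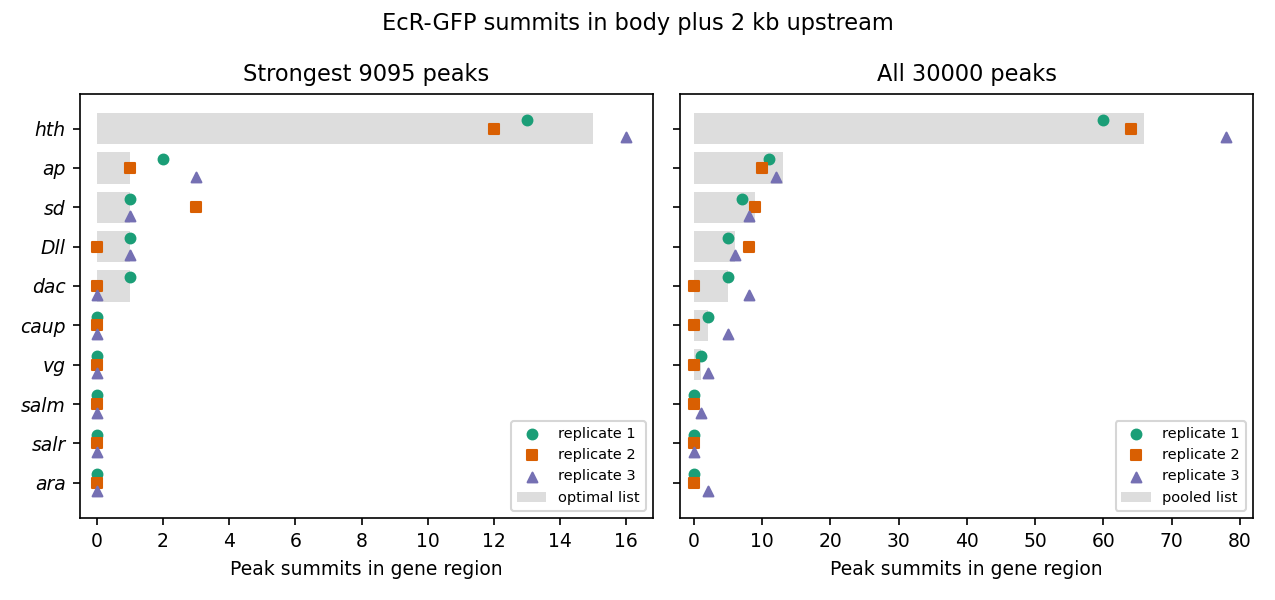
Number of EcR-GFP peak summits (horizontal axis) in the region of each selector gene (vertical axis) among the strongest 9095 peaks (left) and all 30000 peaks (right). Grey bars are the optimal or pooled list and points are the 3 replicates' own lists; hth, with 12 to 16 summits among the strongest peaks of each replicate, stands above the other 9 genes, which have at most 3.

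Taking each replicate's own strongest 9095 peaks, hth held 13 summits in replicate 1, 12 in replicate 2 and 16 in replicate 3 (13.7 ± 2.08, SD, n = 3). The ap region held 2, 1 and 3 summits in replicates 1, 2 and 3 (2 ± 1). The sd region held 1, 3 and 1 summits (1.67 ± 1.15). All replicates placed hth far above these genes, whose counts overlapped. Dll held 1, 0 and 1 summits (0.667 ± 0.577), and dac held 1 in replicate 1 and 0 in the others (0.333 ± 0.577). The remaining 5 genes were at 0 in every replicate. The 10 genes together held 18, 16 and 21 summits (18.3 ± 2.52), so the total of 19 in the optimal list lies within the range of the replicates.

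The pooled list reaches weaker peaks, and there 7 of the 10 genes had a summit, beside 50.4% of all protein-coding genes. Without hth this was 6 of 9, beside 73.5% of genes in the same length range. hth held 66 pooled summits, ap 13, sd 9, Dll 6, dac 5, caup 2 and vg 1. ara, salm and salr held none. Of these 102 pooled summits 18.6% were optimal, compared with 31.4% over all protein-coding regions, so the summits of the selector genes included a larger share of weak peaks than the rest. Per 10 kb of region the 10 genes held 3.34 pooled and 0.621 optimal summits, and all protein-coding regions held 2.59 and 0.812. hth alone held 4.93 pooled and 1.12 optimal summits per 10 kb, while the other 9 genes held 2.10 and 0.233. Among these 9, ap held 5.57 pooled summits per 10 kb, more than hth, sd held 3.56, and the rest held fewer.

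None of the 19 summits was among the strongest 10% of optimal peaks. Their median percentile of signal within the optimal list was 30.2, where 50 is the middle of the list, and they ranged from 2.12 to 83.9. The 5 summits stronger than the list's median all lay in hth, whose own median percentile was 33.1. Peaks at the selector genes were also narrow, with a median width of 403 bp compared with 565 bp over all optimal peaks.

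hth, on the minus strand at chr3R:10507561-10639568, is by far the longest gene of the set, and its region of 134008 bp holds no other protein-coding gene. The annotation gives it 5 transcripts from 2 starts, the outermost used by hth-RE alone and the other, 25292 bp downstream, used by the remaining 4 transcripts. Its 15 optimal summits spread over 93916 bp, with a smallest gap of 257 bp, a median gap of 5020 bp and a largest gap of 18052 bp. Of these, 14 lay in introns and 1 at the promoter, here meaning within 500 bp of an annotated start. In steps of 20 kb from the outermost start the optimal summits numbered 0, 3, 4, 1, 4, 3 and 0. The 20 kb nearest the outermost start were thus free of optimal summits, although replicate 3 had 1 summit there among its own strongest 9095, and the first optimal summits came near the second start.

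**Figure D2:**
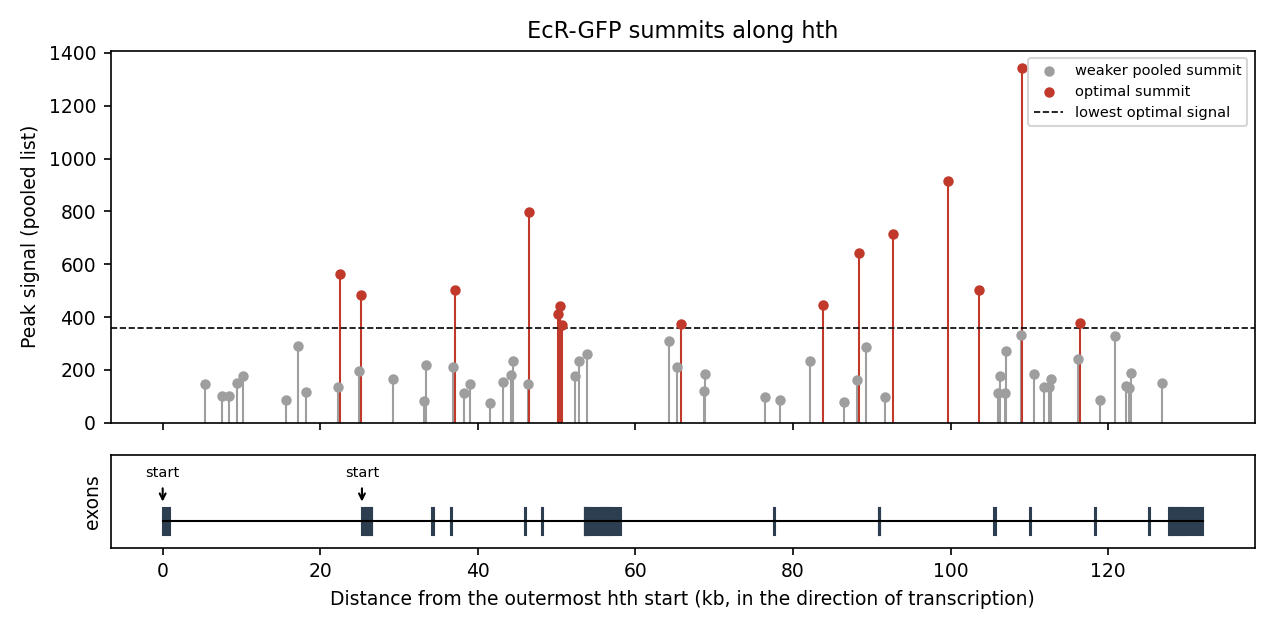
Signal of each pooled EcR-GFP summit (vertical axis, the authors' signal value) against its distance from the outermost hth start in kb (horizontal axis), with exons of all hth transcripts and both starts drawn below to the same scale. Red stems are the 15 optimal summits and grey stems the 51 weaker ones, and the dashed line is the lowest signal in the optimal list; the tallest stem lies 109088 bp into the gene, far from both starts.

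Most hth summits were far from the gene's own starts. The distance to the nearer hth start ran from 176 bp to 91107 bp, and 12 of the 15 summits were over 20 kb from both starts. For 7 of them, in the distal part of the gene, the nearest start of any gene was that of mir-4944, a microRNA gene lying inside hth. Only 2 summits lay within 5 kb of an hth start. One of these, at chr3R:10614452, lay 176 bp upstream of the second start, ranked 6390 in the optimal list, and ranked 9010, 11540 and 4530 in replicates 1, 2 and 3. The other, 2809 bp upstream of that start at chr3R:10617085 in intron 1 of hth-RE, ranked 5215 in the optimal list and 6932, 8551 and 3829 in the replicates. Replicate 3 placed both higher than the other replicates did.

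The 5 strongest hth summits lay in introns 4 to 9 of hth-RC and repeated in every replicate. The summit at chr3R:10530480, in intron 9 of 13 of hth-RC, had a signal of 1341 and rank 1469 in the optimal list, and ranked 1968, 1714 and 1181 in replicates 1, 2 and 3. The summit at chr3R:10539888 in intron 8 ranked 2624, and in the replicates 2595, 3674 and 2341. The summit at chr3R:10593053 in intron 4 ranked 3234, and in the replicates 3823, 4103 and 2852. These 3 were well inside the strongest 9095 peaks of each library. Further summits at chr3R:10546904 in intron 8 (rank 3796) and chr3R:10551177 in intron 7 (rank 4381) ranked 3821, 6370 and 3259, and 4683, 6040 and 4212, in replicates 1, 2 and 3. Replicate 2 gave the lowest place to 4 of these 5 and replicate 1 to the first.

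Sequences around the 4 strongest hth summits are shown because they are the binding sites of the gene set with the highest ranks. Of the motifs searched, a short GA repeat was the one held most often, here and over all optimal summits (described further on). Each run is 151 bases of the plus strand from the RefSeq genome of release 6 of the D. melanogaster assembly (the assembly of dm6), 75 bases on either side of the summit. Capitals mark GAGAG or its complement CTCTC; the second run has none. In order, the runs cover chr3R:10530405-10530555, chr3R:10539813-10539963, chr3R:10592978-10593128 and chr3R:10546829-10546979.
hth rank 1469: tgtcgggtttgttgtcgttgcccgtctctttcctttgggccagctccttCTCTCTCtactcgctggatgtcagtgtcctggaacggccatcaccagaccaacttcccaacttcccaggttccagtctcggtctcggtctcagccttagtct
hth rank 2624: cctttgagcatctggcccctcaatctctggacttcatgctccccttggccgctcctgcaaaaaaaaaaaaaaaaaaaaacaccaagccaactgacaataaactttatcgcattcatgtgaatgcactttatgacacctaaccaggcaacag
hth rank 3234: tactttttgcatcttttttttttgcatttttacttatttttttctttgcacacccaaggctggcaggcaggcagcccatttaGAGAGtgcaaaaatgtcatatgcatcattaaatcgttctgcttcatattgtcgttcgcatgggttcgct
hth rank 3796: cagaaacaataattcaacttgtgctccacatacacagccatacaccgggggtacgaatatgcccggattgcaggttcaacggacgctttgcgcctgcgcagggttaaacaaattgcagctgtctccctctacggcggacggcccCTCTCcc

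The weaker optimal summits of hth varied more between replicates. Intron 5 held a cluster of such summits, among them the smallest gap of 257 bp. The first of these, at chr3R:10588837, ranked 8202, 17542 and 6815 in replicates 1, 2 and 3. Its neighbour at chr3R:10589138 ranked 9023, 5393 and 8588. The next, at chr3R:10589395, ranked 19808, 4959 and 7494. Replicate 2 was thus strong at the latter pair of positions and weak at the first, and replicate 1 was weak at the last. The summit at chr3R:10602488 in intron 3 ranked 6069 in the optimal list, 4608 in replicate 1 and 6120 in replicate 3, and the nearest summit of replicate 2 was 110 bp away, just past the 100 bp allowed for a match.

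A longer region can hold more summits, so hth was set beside other long genes. Of the 85 protein-coding genes with a region of 100 kb or more, the median held 2 optimal and 11 pooled summits and 36 held no optimal summit. Only 9 of them had more optimal summits than hth, and 7 had more pooled summits. Over all protein-coding genes, 46 had 15 or more optimal summits, hth included.

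**Figure D3:**
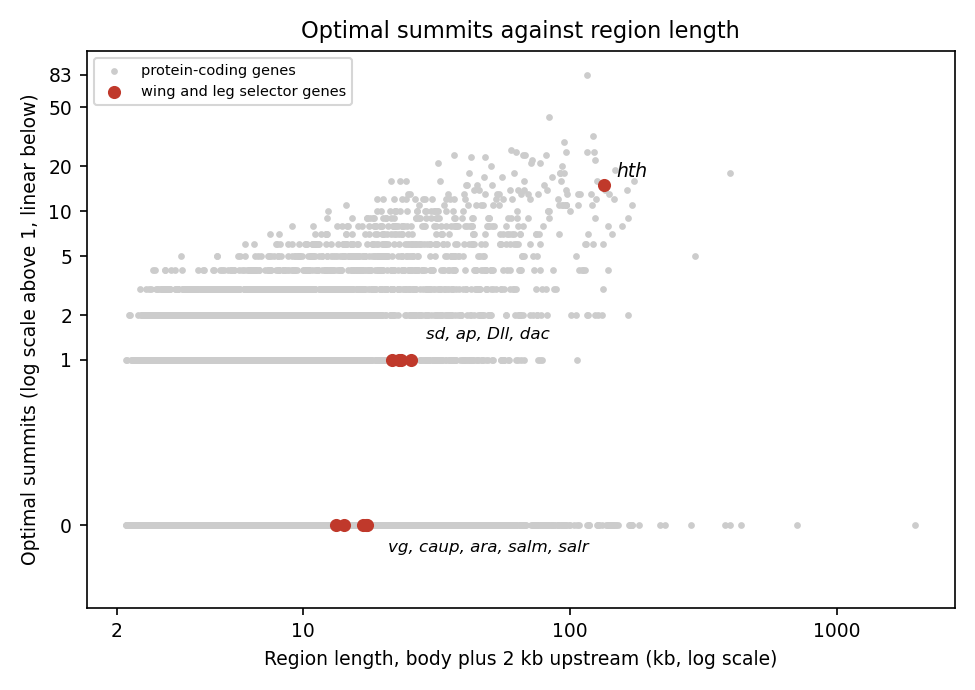
Optimal summits per gene (vertical axis, logarithmic above 1 and linear below) against the length of the gene's region in kb (horizontal axis, logarithmic) for all 13945 protein-coding genes (grey) and the 10 selector genes (red). hth lies near the top for its length with 15 summits, while the other 9 lie at 1 or 0.

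dac, which encodes a transcriptional cofactor of the Ski/Sno family needed for intermediate leg segments, lies on the minus strand at chr2L:16466512-16485998. Its optimal summit, at chr2L:16477765 in intron 2 of 10 and 8233 bp from the start, was the weakest of the 19, with a signal of 365 and rank 8902. It ranked 8547 in replicate 1 and 9405 in replicate 3, while the nearest summit of replicate 2 was 10319 bp away. Across all 30000 peaks the dac region held 5 summits in replicate 1, 0 in replicate 2 and 8 in replicate 3, so peaks at dac were listed in 2 of 3 replicates. The other 4 pooled summits were weaker, and 3 of them lay within 500 bp of the dac start, at ranks from 20180 to 29060. The window of chr2L:16477690-16477840 around the intron summit is shown because it shares a run of 14 bases with a strong hth summit; capitals mark GAGAG, on the plus strand.
dac rank 8902: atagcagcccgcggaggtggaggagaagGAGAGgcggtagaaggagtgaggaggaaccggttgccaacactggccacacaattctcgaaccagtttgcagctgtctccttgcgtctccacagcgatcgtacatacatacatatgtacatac

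The shared run, ttgcagctgtctcc on the plus strand in both genes, lay at chr2L:16477784-16477797 in dac and at chr3R:10546941-10546954 in hth, beside the summit of rank 3796. Among all 9095 optimal windows of this width, on either strand, 2 held it, namely these. It was noticed after the sequences had been seen and was not tested. The next longest run shared among the 6 printed windows was 13 bases, rich in A, and occurred in 12 optimal windows.

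sd encodes the DNA-binding TEAD-family partner of Vg in the wing and of Yorkie in growth control, and lies on the plus strand at chrX:15804370-15827682 with 7 annotated starts. Its optimal summit, at chrX:15811916, lay 178 bp upstream of an internal start, 7546 bp downstream of the outermost one, with a signal of 485 and rank 6349. It ranked 7915, 4600 and 6599 in replicates 1, 2 and 3, and so was among the strongest 9095 peaks of all of them, the only optimal summit outside hth for which this held. All 8 weaker pooled summits of sd lay within 500 bp of an annotated start of sd or of another gene, and 5 of them were matched in all replicates. The best placed, 88 bp upstream of another internal start, ranked 9866 in the pooled list and 9808, 8004 and 12071 in the replicates. Another at pooled rank 10332, 22 bp downstream of a start, ranked 13396, 7204 and 9677. Replicate 2 ranked both higher than the other replicates did, and they are 2 of its 3 strong summits at sd. The outer summits of sd also fall in the regions of neighbours PGRP-LE and CG8509, so they cannot be given to sd alone. The window of chrX:15811841-15811991 is shown because it is the one promoter among the printed windows, and capitals mark CTCTC, the complement of GAGAG.
sd rank 6349: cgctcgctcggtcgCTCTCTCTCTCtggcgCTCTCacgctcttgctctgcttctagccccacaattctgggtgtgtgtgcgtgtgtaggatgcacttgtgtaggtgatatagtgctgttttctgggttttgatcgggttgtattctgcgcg

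vg, whose product is the coactivator that gives Sd its wing-specific activity, had no optimal summit in its region (gene body chr2R:12884201-12899385, plus strand). Its single pooled summit lay 1562 bp upstream of the start at rank 18491, also in the region of its neighbour AspRS, an aminoacyl-tRNA synthetase gene. A matching summit was present at rank 21029 in replicate 1 and 21050 in replicate 3, and replicate 2 had none. The nearest optimal summit, rank 6741, was 1437 bp beyond the vg region, and its nearest protein-coding start was that of AspRS. Within the vg body itself no list held a summit. The partners vg and sd thus differed, with 1 and 9 pooled summits and with 1, 0 and 2 against 7, 9 and 8 summits in replicates 1, 2 and 3. The sd region is longer, at 25313 bp against 17185 bp for vg, and both pooled counts include summits shared with neighbours' regions.

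ap, the LIM-homeodomain selector of the dorsal wing compartment, lies on the minus strand at chr2R:5706202-5727525 and had more weak summits than any selector gene except hth. Its optimal summit at chr2R:5727034 lay 202 bp upstream of an internal start, with a signal of 539 and rank 5548. It ranked 5223 in replicate 1, 10023 in replicate 2 and 4702 in replicate 3, so replicate 2 placed it outside its strongest 9095 peaks. Among the 12 weaker summits, 10 were in introns, and 5 were matched in all replicates. The strongest of them, at chr2R:5713692 in intron 4, missed the optimal list narrowly at pooled rank 9293 and ranked 6498, 7925 and 16929. Another at pooled rank 9792 in intron 1 ranked 12114, 16371 and 8764, and a further one at 10713 in intron 4 ranked 9623, 11223 and 11785. No replicate was the strongest at all of these sites. Over all 30000 peaks ap held 11, 10 and 12 summits in replicates 1, 2 and 3 (11 ± 1, SD, n = 3).

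Dll, the homeodomain selector of the distal leg, lies on the plus strand at chr2R:24814822-24835667. Its optimal summit was at the promoter, 151 bp upstream of the single start, with a signal of 381 and rank 8494, and it is counted only because the region includes upstream sequence. It ranked 8902, 11652 and 8241 in replicates 1, 2 and 3. A weaker summit 6058 bp downstream in intron 3 had nearly the same place in each replicate, 10922, 11838 and 12047, and pooled rank 11012. The others ranked from 16690 to 28077, and Dll held 5, 8 and 6 summits in all among the replicates' 30000 peaks. Dll was therefore detected in each replicate, but near or past the end of the strongest 9095.

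**Figure D4:**
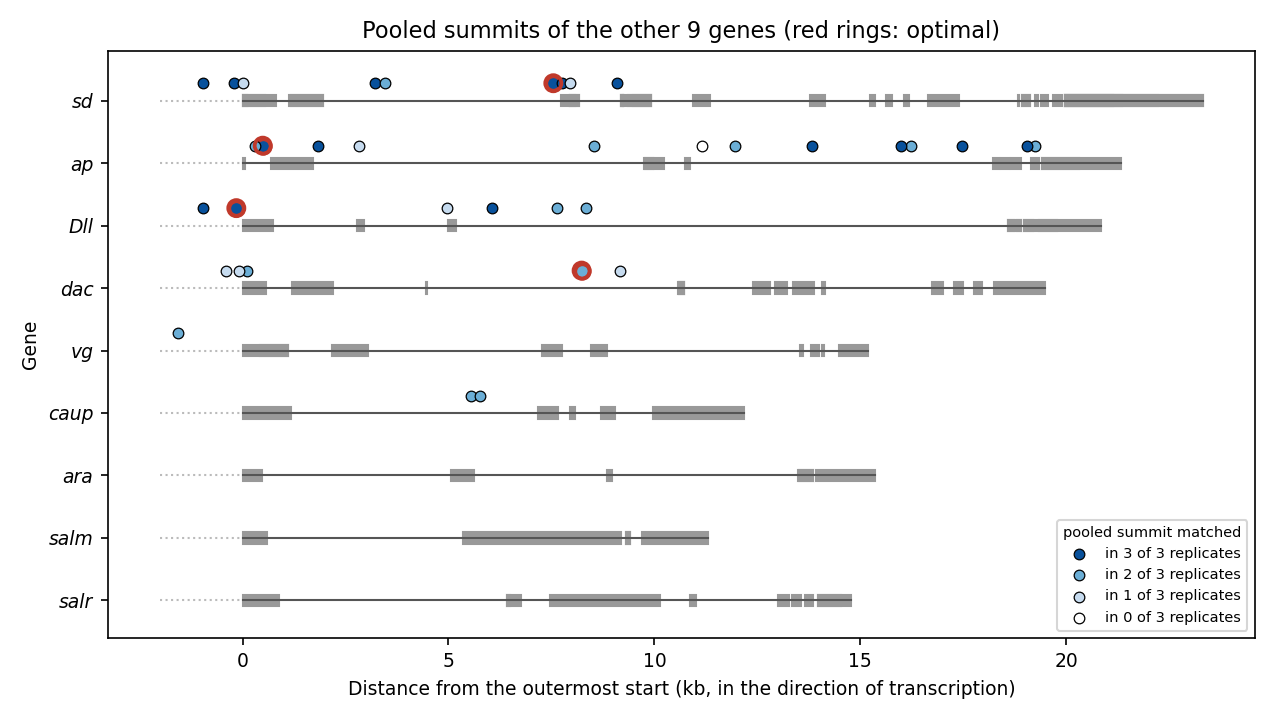
Pooled EcR-GFP summits (points) along the 9 selector genes other than hth, with exons of all transcripts as boxes and the 2 kb upstream as dotted lines; the horizontal axis is the distance from the outermost start in kb. Darker points were matched within 100 bp in more of the 3 replicates, and red rings mark the 4 optimal summits; sd, ap and Dll show dark points near starts, whereas ara, salm and salr have no pooled summit.

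The spalt genes salm and salr, neighbouring zinc finger genes that respond to Dpp in the central wing, were nearly free of listed summits. The lists have a fixed length and come from whole animals, so binding too weak to be listed was not tested. salm (chr2L:11434311-11445614, minus strand) had no pooled summit and 1 summit in replicate 3 alone, 308 bp upstream of its start at rank 11946. salr (chr2L:11358873-11373636, plus strand) had none in any of the lists, as was also true of 23.4% of the 883 genes in the length range. The 60674 bp between the gene bodies held no optimal summit and 13 pooled summits, the strongest at rank 11535 and 2397 bp past the end of salr. The replicates held 10, 7 and 12 summits there, none among their strongest 9095.

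The Iroquois genes ara and caup encode homeodomain proteins of the notum and wing veins, and neither had an optimal summit. ara (chr3L:12580672-12596018, plus strand) had no pooled summit, and its summits in single lists came from replicate 3 alone, 150 bp upstream of the start at rank 10036 and 3621 bp downstream at rank 25323. caup (chr3L:12609631-12621798, plus strand) had 2 pooled summits, both in intron 1, at ranks 13825 and 18789. These were matched at ranks 18612 and 20715 in replicate 1 and 12358 and 18771 in replicate 3, and replicate 2 had no summit in caup. The 13612 bp between ara and caup held no summit in any list. Further along, the 71840 bp from caup to mirr, the remaining gene of the Iroquois complex, held 18 pooled summits and 1 optimal summit, at chr3L:12668694 with rank 7720, which ranked 7838, 9551 and 8538 in replicates 1, 2 and 3. The mirr region itself held 12 pooled summits and no optimal one. Of the 29 pooled summits from the ara start to the mirr end, caup held 2 and ara 0.

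Across the 19 optimal summits, 9 had a summit within 100 bp among the strongest 9095 peaks of every replicate, 7 in 2 replicates and 3 in 1 replicate. That is 47.4%, beside 66.2% of all optimal summits. The 19 were weaker than the list as a whole, with a median percentile of 30.2. They were not set against optimal summits of like strength. Replicate 2 contributed least, with 12 of the 19 compared with 16 in replicate 1 and 16 in replicate 3, although over all optimal summits the replicates were alike at 84.1%, 84.5% and 86.2%. When any of a replicate's 30000 peaks was allowed as a match, 17 of 19 were found in all replicates and the other 2 in 2 replicates, beside 91.1% of all optimal summits in all replicates. The weaker pooled summits of the selector genes repeated about as often as others did: 33 of 83 (39.8%) were matched in every replicate, beside 42.8% of all weaker pooled summits. Which genes were touched at all differed by replicate, with any summit in 7 genes in replicate 1, 4 in replicate 2 and 9 in replicate 3. The share of all protein-coding genes with any summit was 52.0%, 51.9% and 49.5%. Without hth it was 6, 3 and 8 of the 9 genes, beside 73.3%, 74.0% and 73.8% of genes in the same length range.

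**Figure D5:**
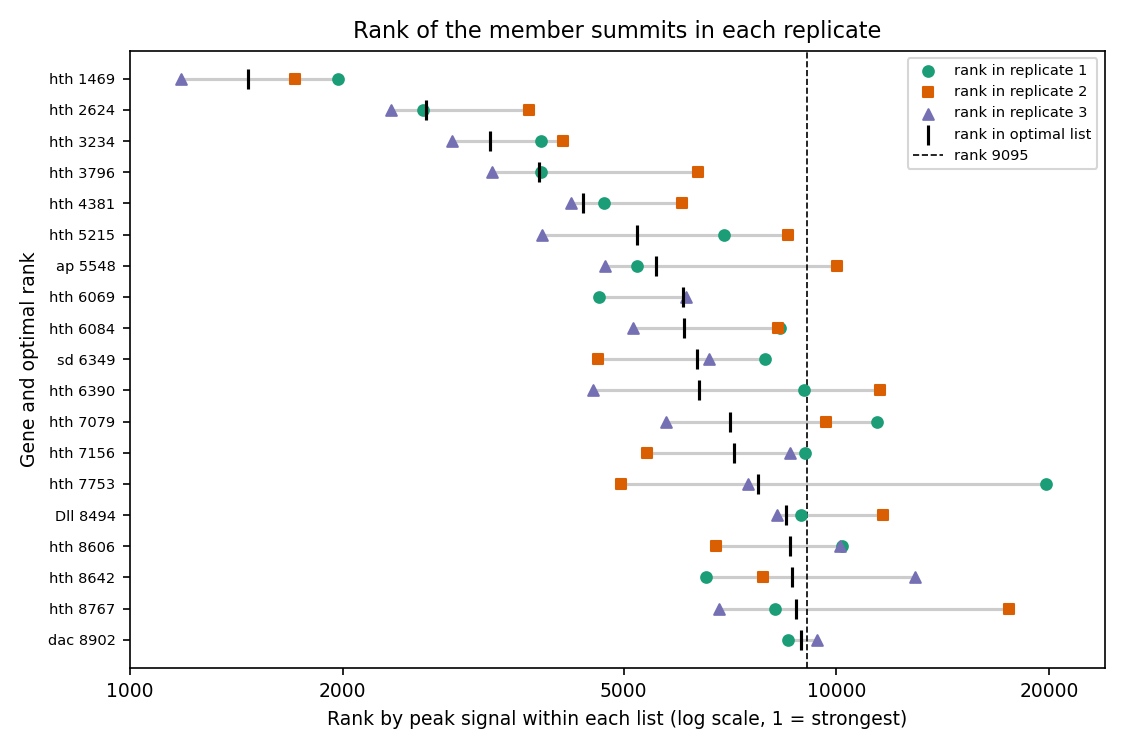
Rank by signal (horizontal axis, logarithmic, 1 is the strongest) of each of the 19 optimal summits in the optimal list (black bars) and of its match in each replicate's list (coloured points), with gene and optimal rank on the vertical axis. The 6 strongest, all in hth, lie left of the dashed line at rank 9095 in every replicate, and many of the lower ones cross it; replicate 2 has no match for dac 8902 and hth 6069.

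By position, 15 of the 19 summits (78.9%) were intronic and 4 were at promoters, of sd, Dll, ap and hth. Over all optimal summits 45.5% were intronic and 36.5% were at promoters. All intronic summits but the 1 in dac lay in hth, and outside hth 3 of 4 summits were at promoters.

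Sequence near the summits was searched on both strands within 100 bp. The inverted repeat bound by EcR with usp, allowing 1 mismatch in its 13 bases, was found at 0 of the 19 optimal summits, which allows a share of up to 15.8%, beside 4.84% of all optimal summits. Among the pooled summits it was found at 0 of 102, which allows up to 2.94%, beside 2.68% of all pooled summits. These limits cover counting error only, as 3 counts over the number of summits, and both include the share seen elsewhere. They treat the summits as independent, although hth alone held 15 of the 19 and 66 of the 102, and so are rough. AGGTCA, the 6 bases bound by a single receptor, which can lie within the inverted repeat, occurred at 0 of 19 summits beside 7.77% of all optimal summits, and at 4 of the 102 pooled summits (3.92%) beside 6.57%. GGAATG, the core bound by Sd and its TEAD relatives, occurred at 2 of 19 (10.5%) beside 9.06%. TGACAG, the core bound by Hth and its Meis relatives, occurred at 1 of 19 (5.26%) beside 6.36%.

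GAGAG, the repeat recognised by the GAGA factor Trl, was the commonest of the motifs, at 12 of the 19 optimal summits (63.2%) beside 38.0% of all optimal summits. It is also the shortest of them, and it was the commonest over all optimal summits too. Windows of the same width centred 1000 bp to either side held it less often, 6 of 38 (15.8%), beside 23.9% for all optimal summits. Such windows beside the 102 pooled summits held it in 27.5%, above the 23.2% for all pooled summits. In the replicates' own strongest peaks the share at the selector genes was 61.1%, 50% and 47.6% in replicates 1, 2 and 3 (52.9 ± 7.20, SD, n = 3), compared with 37.8 ± 0.798 over all such peaks. The selector genes were higher than the whole list in each replicate, and the difference was not tested. Most of these summits lay in hth, 13 of 18, 12 of 16 and 16 of 21 in replicates 1, 2 and 3. The shares therefore describe mainly hth rather than the gene set, and the summits are not independent. Over the 102 pooled summits the share was 49.0%, beside 30.3% of all pooled summits. Base composition moved along with it, the median GC content of the windows being 49.8% at the 19 summits and 46.8% at all optimal summits, and its part in the share of GAGAG was not tested.

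Other wing and leg patterning genes were counted in the same way, from a list of 43 in 4 roles. Of these, 21 (48.8%) had an optimal summit, beside the 30.7% of all protein-coding genes, with 57 summits in all, and 6 had no pooled summit. Their regions run from 4406 bp (Chi) to 74792 bp (bi), and the share was not set against genes of like length. Among partners and cofactors of the selectors 5 of 10 were bound, led by Bx, a LIM-only gene that restrains Ap activity, with 3 summits (best rank 3935). In the same group noc, a zinc finger gene, had 2 (best rank 5348). yki, the growth coactivator that acts through Sd, had 1 at rank 313 in a region shared with Gpat4. exd and Chi, which encode the cofactors of Hth and Ap, had none. The exd region had 3 weaker pooled summits.

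Among wing pouch, vein and hinge genes 5 of 10 were bound, with 8 summits in zfh2, a hinge gene (best rank 271), 3 in bi, a Dpp target of the wing (best rank 6653), and 2 in knrl, a vein gene (best rank 3739). Among leg and joint genes 6 of 15 were bound. The zinc finger gene bowl held 11 summits (best rank 956), the tarsal gene bab1 held 8 (best rank 1551), and sob, a relative of bowl in the leg joints, held 2 (best rank 888). In both bowl and bab1, 8 summits were among the strongest 9095 peaks of all replicates, the same number as in the 15 summits of hth. Among compartment and notum genes 5 of 8 were bound, with 3 summits in inv (best rank 4929), 2 in ct (best rank 6046) and 1 in pnr (best rank 7254). The strongest peaks at zfh2, yki, sob and bowl ranked above every summit of the 10 selector genes.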

How the data were processed

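EcR ChIP-seq peak lists of 3 replicates, 1 group, were analysed as deposited. Each replicate list was made, per the deposited notes, from its own alignment with a control alignment, the pooled list from all 3 alignments, and the optimal list from IDR thresholding of these. What aligner, peak caller and settings were used is not given in the sources used here. Read numbers are not either, and depth and counting error are unknown. The authors' deposited signal value, of unstated scale, ranked peaks within a list only. The deposited −log10 q-value had a single value, 4.55, across the optimal list and ranked nothing.

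Coordinates are 1-based dm6, and 0 optimal peaks ran past a chromosome end. Gene models were from Ensembl release 115 and sequence from RefSeq, both of the same assembly. Summits in the gene body plus 2000 bp upstream were counted with Python 3.11.15, pandas 2.3.3 and numpy 2.4.6, and replicate summits within 100 bp counted as matches. Classes were assigned in the order promoter (500 bp), UTR, exon, intron, intergenic. No 2 replicate lists shared an identical peak. Peaks and genes are not replicates and there is 1 group, so no test was run. Errors are SD over the replicates' own lists, and spread between replicates may be technical. Counting and matching were tested on simulated data. All 10 members are named, and of the other 43 genes up to 3 per role by most optimal summits, plus mirr as the neighbour of ara and caup, and exd and Chi, named after their values were seen. Members, lists and alternatives were chosen with earlier results of these data known. Signal tracks and the control were not analysed here.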

Additional observations from a re-analysis of the deposited data

How the results depend on the processing

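Counts depended chiefly on the peak threshold. Among the strongest 4547 optimal peaks there were 1 gene (hth) and 5 summits, and among all pooled peaks the summits rose to 102. With the own strongest peaks of replicate 2 alone 3 genes had a summit, and with the other replicates 5 and 4. By the same rule 30.2%, 30.9% and 30.1% of all protein-coding genes had a summit in replicates 1, 2 and 3. That share is not given here for the other thresholds, windows and filters, so their gene counts have nothing to be set beside. Requiring a strong match in both remaining replicates when 1 was left out gave 2 to 4 genes and 10 to 14 summits in all. The summits matched in the remaining replicates are these same summits, because the filter requires the match. They are counted under each name in the tally below. By this filter, which can only lower the counts of genes and summits, leaving out replicate 1 or 3 gave 2 genes and 10 summits. Leaving out replicate 2 gave 4 and 14. With all peaks of each replicate 17 summits were matched in all 3. The median percentile was 19.8 when ordered by signal in replicate 1, and 28.7 and 37.5 in replicates 2 and 3. With 2 mismatches the inverted repeat was found at 2 of the 19 summits, beside 18.6% of all optimal summits. The gene body alone gave 4 genes, without Dll, and 5 kb on both sides gave 6, with vg added at 2 summits. Over all alternatives 27 values of these totals stayed within 1.5 times the reported count or within 1 SD and 12 moved further. Of the counts per gene 91 stayed and 29 moved. Part of this was fixed in advance, since a gene with 0 optimal summits stays at 0 wherever the optimal list is only narrowed. Counting 1 summit per interval could change nothing either, because no interval at these genes held another optimal summit. The tally therefore overstates how stable the counts were. No paired analysis was possible because there is only 1 group. Limits are the unknown depth, the fixed list length of 30000 peaks, lists that share reads, and whole animals.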
